A study of Bos taurus with 14 samples.

Results

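Small RNA of blood plasma was set against small RNA of blood leucocytes from the same herd of cows while the animals ate forage. The comparison used 7 of the 14 libraries of the series, which were chosen by their labels: 4 plasma libraries and 3 leucocyte libraries on the forage diet (FD). The animals were non-lactating Holstein cows with a rumen cannula, and on FD they received no concentrate. They were later moved to a high-grain diet (HG). All blood was drawn from the jugular vein into EDTA tubes. Plasma was cleared by repeated centrifugation, and leucocytes were taken from the buffy coat, the layer of white cells that forms above the red cells. With the number in each title read as the cow number, the leucocyte libraries came from cows 1, 3 and 4, and plasma was also sequenced from cow 2. Plasma RNA and leucocyte RNA were isolated with different kits, so sample type and isolation kit cannot be told apart in any value given here.

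MicroRNAs (miRNAs) are short RNAs that guide silencing proteins to matching sites in messenger RNA and lower the output of the gene. Cells release some of them, and in plasma they are protected from degradation by vesicles, lipoproteins and Argonaute proteins, so plasma collects miRNAs from blood cells and from solid organs alike. Some miRNAs are made mostly in 1 tissue: miR-122 in hepatocytes, miR-451 in developing red cells, miR-142 in cells of the blood lineage, the miR-200 family in epithelia and miR-143 in smooth muscle.

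The measure of a miRNA was its reads per 1000000 reads assigned to bovine (bta) miRNAs in the same library (CPM). A read that maps to several names was divided among them, and a bovine miRNA with a human homologue in the search library shared its reads with that name. CPM values of 1 name were therefore compared between libraries, and single names were ranked by undivided shares, in which each name keeps all of its reads. Shares summed over a list or over the 10 most abundant names, and the choice of those 10, use divided reads, which count a read once but leave out what was assigned to human names. A share says which part of a library a miRNA takes and not how much of it a sample holds. A lower share in plasma can come with fewer contributing cells or with less RNA from each, and these cannot be told apart. Undivided bovine miRNA reads came to 379577, 1495229, 1775772 and 3155818 in plasma of cows 1 to 4. Leucocytes of cows 1, 3 and 4 had 66482869, 56736552 and 21936574. The largest total was thus 175 times the smallest. Plasma libraries correlated with each other at Pearson's r of 0.860 to 0.922 on log2 CPM across miRNAs, with the pairs of cow 1 at 0.860 to 0.876. Leucocyte libraries correlated at 0.976 to 0.997. No 2 libraries of a sample type agreed within sampling noise.

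The most abundant miRNAs of plasma were a mixture of blood cell, liver and widely made miRNAs. By undivided share, miR-24-3p led with 9.14% ± 4.72 (SD, n = 4), followed by miR-21-5p with 8.60% ± 2.13, miR-451 with 8.38% ± 4.35, miR-486 with 4.8% ± 0.845 and miR-122 with 3.84% ± 2.42. The first 3 of these did not differ beyond their spread. Leucocytes were led by miR-451, an erythroid miRNA that is processed by Argonaute 2 without Dicer, with 30.8% ± 6.51 (SD, n = 3). The next places there were held by miR-21-5p with 7.28% ± 0.729, miR-16b with 4.62% ± 0.128, miR-486 with 4.45% ± 1.13 and miR-26a with 4.19% ± 0.826. The lead of miR-451 over miR-21-5p in leucocytes was far larger than the spread of either. Counted by CPM, the 10 most abundant names took 49.6% ± 2.53 of plasma reads and 63.7% ± 3.23 of leucocyte reads, and 4 names stood in both sets.

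**Figure D1:**
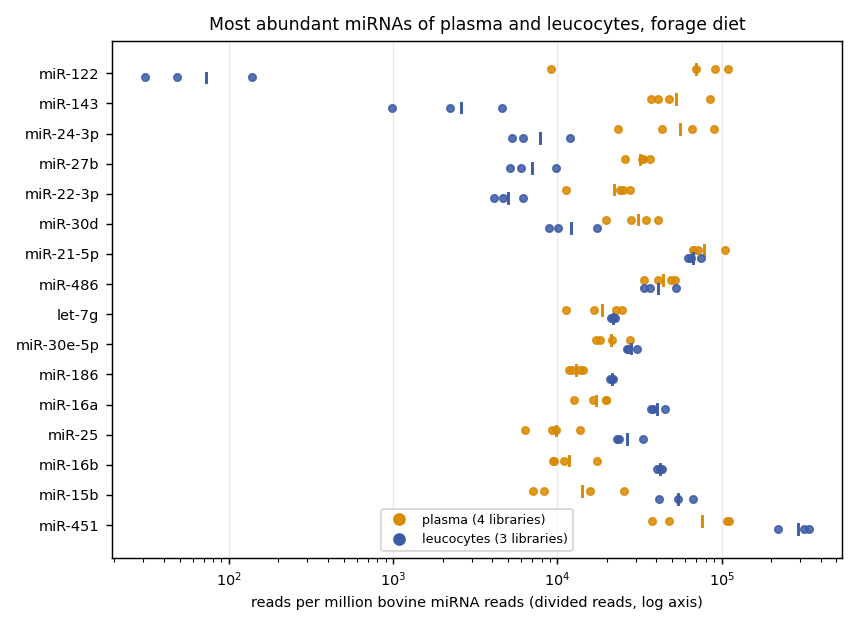
CPM (log axis) of the 16 miRNAs that rank among the first 10 by CPM in plasma or in leucocytes, ordered by fold change. Circles are libraries (orange plasma, blue leucocytes) and ticks are means; miR-122 and miR-143 lie apart at the plasma side and miR-451 and miR-15b at the leucocyte side, while miR-21-5p, miR-486 and let-7g overlap.

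Which miRNAs took a larger part of plasma than of leucocytes was tested over all bovine names. Of 683 bovine names with reads on FD, 260 reached 10 CPM in at least 3 of the 7 libraries and were tested. A total of 133 passed an adjusted p of 0.05 in edgeR's quasi-likelihood test, 51.2% of those tested. Of these, 90 were higher in plasma (34.6%) and 43 were lower (16.5%). The CPM ranges of the sample types did not overlap for 124 of the 133, against 58.5% of all tested names. The filter let 17 of the 90 pass through plasma alone and 14 of the 43 through leucocytes alone, since the other sample type was under 10 CPM in every library. With the replicate number as a block (cows 1, 3 and 4), 59 names were higher and 30 lower. The test lost many calls when 1 of the 3 leucocyte libraries was left out: 41 higher and 14 lower were called without leucocytes of cow 1, 40 and 13 without cow 3, and 72 and 19 without cow 4. Without plasma of cow 1, 90 were higher and 65 lower. Among the miRNAs described here, the calls of miR-101, miR-124a, miR-124b, miR-133a, miR-142-5p, miR-152, miR-182, miR-183, miR-195, miR-199a-5p, miR-2285t, miR-23a, miR-23b-3p, miR-29a, miR-29b, miR-302b, miR-30b-5p, miR-30d, miR-378, miR-423-3p, miR-885 and let-7e were lost without leucocytes of cow 1 and also without those of cow 3. The call of miR-6119-5p was lost without leucocytes of cow 1 and that of miR-9-5p without those of cow 3. The replicate block lost the calls of miR-106a, miR-124a, miR-124b, miR-147, miR-150, miR-152, miR-183, miR-195, miR-2285t, miR-23b-3p, miR-29a, miR-29b, miR-378 and miR-885.

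How the libraries were scaled decided the balance of the calls. Tested names had a median log2 fold change, plasma minus leucocytes, of 0.85 relative to the library total. Higher names were 67.7% of the calls with the library total, 41.6% with TMM scaling (62 higher, 87 lower, median -0.28) and 51.4% with DESeq2 size factors (73 higher, 69 lower, median 0.32). Without the erythroid miRNAs, whose list is described later, they were 53.0% (70 higher, 62 lower, median 0.42). No called miRNA changed sign under these scalings. All log2 fold changes that follow are relative to the library total, and the median of 0.85 stands beside them.

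**Figure D2:**
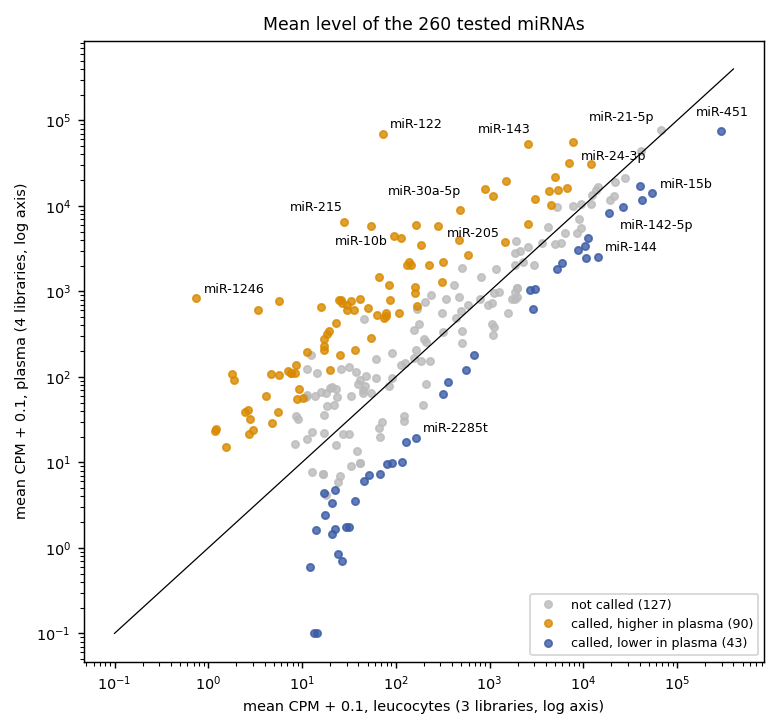
Mean CPM plus 0.1 in leucocytes (x, log axis) and plasma (y, log axis) of the 260 tested miRNAs, with the line of equal level. Orange marks the 90 called higher in plasma, blue the 43 called lower and grey the 127 not called; miR-122 lies farthest above the line among abundant names and miR-451 lies below it at the upper right.

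Liver and gut miRNAs had the largest log2 ratio of summed share between plasma and leucocytes among the lists, 5.16. They rose in 4 of 5 tested names, beside 34.6% of all tested names, with a median log2 fold change of 3.75. miR-122 (UMD3.1 chr24:58095656-58095677, plus strand), which in hepatocytes regulates lipid metabolism, was at 9171, 91207, 109305 and 69952 CPM in plasma of cows 1 to 4 and at 30.9, 48.3 and 139 CPM in leucocytes of cows 1, 3 and 4. Every plasma library was far above every leucocyte library, although cow 1 was at a lower level than the other 3 plasma samples. Its log2 fold change was 9.91 ± 1.04 (SE, adjusted p = 5.14e-05), and 10.28 without plasma of cow 1. miR-215 (chr16:24305748-24305769, minus strand), an intestinal and hepatic miRNA, was at 3772, 11049, 4604 and 6328 CPM in plasma and at 21.7, 26.6 and 35.8 CPM in leucocytes (log2 fold change 7.84 ± 0.66, adjusted p = 3.28e-06). Its relative miR-192 had 12902 ± 8747 CPM in plasma (SD, n = 4) and 1083 ± 111 CPM in leucocytes (SD, n = 3), with a log2 fold change of 3.58 ± 0.58 (adjusted p = 5.61e-04). miR-192 and miR-215 are near-identical, so reads of either could have been assigned to the other and their separate values are uncertain. miR-194, whose first listed locus lies within 10000 bases of miR-192 on chromosome 29, was not called. Its level was 825 ± 203 CPM in plasma and 791 ± 11.5 CPM in leucocytes (log2 fold change 0.06 ± 0.57, adjusted p = 0.935). Only the first listed locus of a name was used, so reads of miR-194 from any other locus cannot be told apart. miR-885 was the fourth member that rose (log2 fold change 3.75 ± 1.10, adjusted p = 0.0135), and its call was lost with the replicate block. Together the 5 names made up 9.03% ± 5.12 of plasma reads, from 1.78% in cow 1 to 12.8%, and 0.199% ± 0.0186 of leucocyte reads.

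Epithelial miRNAs were higher in plasma in 6 of 6 tested names, beside 34.6% of all tested names. This direction was fixed by read numbers and library totals, as given below. Their median log2 fold change was 4.50. They comprise the 5 members of the miR-200 family, which hold epithelial identity by repressing ZEB factors, and miR-205, a miRNA of stratified epithelia. In plasma of cows 1 to 4, miR-200a was at 9911, 5046, 1773 and 1121 CPM, and leucocytes had 27, 47 and 212 CPM. The groups did not overlap, and the log2 fold change was 5.55 ± 1.01 (adjusted p = 0.00118). For miR-205 the plasma values were 11286, 6997, 3058 and 1833 CPM and the leucocyte values 80.1, 140 and 627 CPM (log2 fold change 4.36 ± 0.87, adjusted p = 0.00198). All 6 names had similar read numbers in libraries of very different size, with the highest library at 2.84 to 4.86 times the lowest while totals differed 175-fold. Every leucocyte total exceeded every plasma total by a larger factor (21936574 against 3155818 reads at the closest), which fixes the direction of their change. The count of 6 of 6 and the lack of overlap follow from this, and the cause of the similar read numbers was not tested. In miR-200a and miR-205, plasma CPM was highest in cow 1, the plasma library with the fewest reads, and leucocyte CPM was highest in cow 4, the leucocyte library with the fewest reads. The summed share was 1.52% ± 1.22 in plasma and 0.0634% ± 0.0650 in leucocytes.

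Vascular and stromal miRNAs rose in 8 of 12 tested names and none fell, while 34.6% of all tested names rose and 16.5% fell. miR-143 (chr7:62809359-62809380, plus strand), a smooth muscle miRNA, was the most abundant of them, with 84438, 48007, 37273 and 40814 CPM in plasma and 987, 2231 and 4570 CPM in leucocytes (log2 fold change 4.34 ± 0.56, adjusted p = 1.25e-04). Its neighbour miR-145 had a log2 fold change of 4.54 ± 0.95 (adjusted p = 0.00253). The endothelial miR-126-3p was at 6026 ± 2101 CPM in plasma and 165 ± 136 CPM in leucocytes (log2 fold change 5.19 ± 0.68, adjusted p = 1.30e-04), and miR-214 of fibroblasts rose by 6.03 ± 1.4 (adjusted p = 0.00485). The miR-199 names were divided, since miR-199a-5p rose (log2 fold change 4.55, adjusted p = 0.00832) while miR-199a-3p was at 1110 ± 560 CPM in plasma and 1986 ± 273 CPM in leucocytes without passing the test (adjusted p = 0.2). Reads of miR-143, miR-145 and miR-199a-5p differed 3.83-fold, 4.27-fold and 4.50-fold between libraries whose totals differed 175-fold. Every leucocyte total exceeded every plasma total by a larger factor, which fixes the direction of change of these names. The cause of their similar read numbers was not tested. miR-214 and miR-199a-5p were under 10 CPM in every leucocyte library and entered the test through plasma alone, which favours a rise. The list of miR-99, miR-100, miR-125 and miR-10 names overlaps the vascular and stromal list and rose in 6 of 7 tested names (median 4.94). Its largest change was that of miR-10b, a miRNA of the HOXD region, with 1828, 8294, 5407 and 8062 CPM in plasma and 22.6, 34.0 and 105 CPM in leucocytes (log2 fold change 6.78 ± 0.83, adjusted p = 1.00e-04).

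Muscle, neural and endocrine miRNAs made up little of either sample type. Of 3 tested muscle names, miR-1 and miR-133a rose (log2 fold changes 4.10 and 3.97, adjusted p = 0.00702 and 0.00930), and miR-499 did not pass (log2 fold change 0.50, adjusted p = 0.606). Reads of miR-1 differed only 3.03-fold between libraries whose totals differed 175-fold, which with these totals fixes the direction of its change. miR-133a was under 10 CPM in every leucocyte library and entered the test through plasma alone, which favours a rise. The neural and endocrine list rose in 5 of 7 tested names, beside 34.6% of all tested names. The 5 count miR-124a and miR-124b, whose reads are identical, as separate names, and also both arms of miR-9. Reads of miR-124a and miR-124b differed only 3.51-fold and those of miR-9-5p 3.44-fold, which with the library totals fixes the direction of their change. The most abundant member of the list was miR-375, known from pancreatic islets and gut endocrine cells. It was at 2814, 3468, 2653 and 5169 CPM in plasma and 51.5, 103 and 406 CPM in leucocytes (log2 fold change 4.24 ± 0.77, adjusted p = 0.00118). Summed shares were 0.102% ± 0.0532 in plasma for muscle and 0.482% ± 0.0968 for neural and endocrine names. In the imprinted DLK1-DIO3 region 47 names had reads, 6 were tested and 3 rose (34.6% of all tested names rose). Of the 3, miR-369-3p (5.51 ± 0.45 CPM in leucocytes) and miR-495 (2.92 ± 1.33 CPM) were under 10 CPM in every leucocyte library. They entered the test through plasma alone, which favours a rise. The 3 calls were lost with TMM scaling, with no filter and without any 1 of the leucocyte libraries.

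Read numbers differed among the miRNAs that rose. Leucocyte libraries had on average 28.4 times the reads of plasma libraries, so a miRNA with the same number of reads in every library has a higher CPM in plasma by arithmetic. Among 325 names with a mean of at least 50 undivided reads, 15 spanned less than 4-fold between their lowest and highest library, which with these totals fixes the direction of their change. Their log2 fold changes were 3.69 to 5.02, and all 15 are among the 90. An example, named after its values were seen, is miR-302b of embryonic stem cells, with 173, 223, 183 and 174 reads in plasma of cows 1 to 4 and 200, 264 and 523 reads in leucocytes of cows 1, 3 and 4. Likewise miR-99b had 807, 1031, 978 and 506 reads in plasma and 932, 1173 and 982 reads in leucocytes. Among the 15 were also miR-200b, miR-200c, miR-205, miR-429, miR-1, miR-124a and miR-124b, whose reads are identical, miR-9-5p, miR-30a-5p, miR-143 and miR-183. The direction is fixed also for wider spreads that stay under the gap between every leucocyte total and every plasma total. Such names include miR-182 (4.17-fold), miR-145 (4.27-fold), miR-200a (4.30-fold), miR-199a-5p (4.50-fold), miR-141 (4.86-fold) and miR-125a (6.74-fold). Together the 15 names took 8.26%, 4.13%, 3.05% and 2.70% of undivided reads in plasma of cows 1 to 4 and 0.0908%, 0.177% and 0.420% in leucocytes of cows 1, 3 and 4. In 39 of the 90 names every plasma library had fewer reads than every leucocyte library.

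Other names had more reads in plasma in spite of the smaller libraries. In 18 of the 90 names the mean number of reads was higher in plasma, and in 6 each plasma library of cows 2 to 4 had more reads than any leucocyte library. These 6 were miR-122, miR-215, miR-10b, miR-1246, miR-193a-3p and miR-1249, the last 3 of which were named after their values were seen. miR-122 had 1947, 75044, 108308 and 117404 reads in plasma and 1102, 1486 and 1648 reads in leucocytes, so that it alone of the 90 exceeded every leucocyte library also in cow 1. miR-1246 had 6, 3823, 930 and 1785 reads in plasma and 27, 24 and 28 reads in leucocytes (log2 fold change 10.35 ± 1.69, adjusted p = 5.61e-04). miR-193a-3p had 28, 580, 892 and 1132 reads in plasma and 50, 77 and 70 reads in leucocytes (log2 fold change 7.54 ± 1.16, adjusted p = 4.29e-04). miR-1246 and miR-193a-3p were under 10 CPM in every leucocyte library and entered the test through plasma alone. In plasma of cow 1 each of the other 5 had fewer reads than at least 1 leucocyte library.

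**Figure D3:**
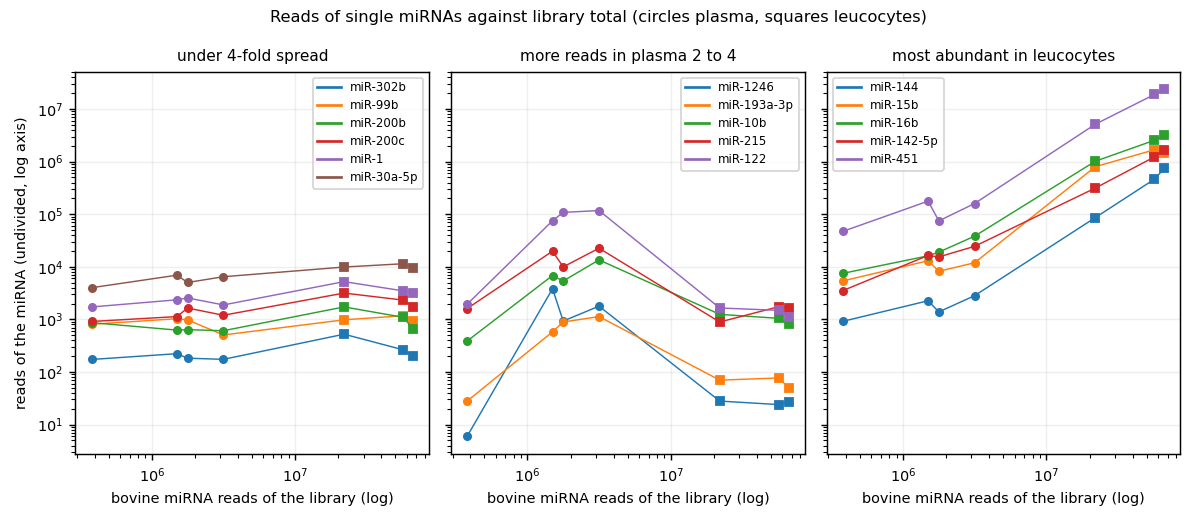
Undivided reads of single miRNAs (y, log axis) against the bovine miRNA reads of the library (x, log axis), with circles for the 4 plasma and squares for the 3 leucocyte libraries. In the left panel reads span less than 4-fold over libraries whose totals differ 175-fold, in the middle panel reads of plasma from cows 2 to 4 lie above those of leucocytes, and in the right panel reads grow with the total.

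Within leucocytes, but hardly within plasma, CPM of the higher names went with depth. In 76 of the 90 higher names (84.4%) the 3 leucocyte libraries ranked by CPM in the reverse order of their totals, against 56 of the other 170 tested names (32.9%). CPM in leucocytes of cow 4 was 2.61 times the mean of cows 1 and 3 in the median higher name and 1.05 times in the other names, and the totals of cows 1 and 3 averaged 2.81 times that of cow 4. In plasma, the smallest library (cow 1) had the highest CPM in 43 of the 90 higher names and in 64 of the other 170. Its CPM was 1.26 times the mean of the other plasma libraries in the median higher name and 1.20 times in the other names, while the totals differed 5.64-fold. When every library was reduced to the reads of the smallest plasma library, 77 names were higher and 32 lower. That reduction keeps each share and does not remove this pattern. What brought a near-constant number of reads into libraries of different size was not tested.

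The names on the erythroid list went in both directions. miR-451 (chr19:20796875-20796897, minus strand) was at 110973, 107767, 37638 and 47612 CPM in plasma and at 341152, 315402 and 221829 CPM in leucocytes. Every leucocyte library was above every plasma library (log2 fold change -1.95 ± 0.38, adjusted p = 0.00177). miR-144, made from the same transcript, was at 4324, 2748, 1401 and 1686 CPM in plasma and 20893, 15075 and 7244 CPM in leucocytes (log2 fold change -2.51 ± 0.49, adjusted p = 0.00177). miR-486, which is also abundant in red cells, was at 43739 ± 8285 CPM in plasma and 41102 ± 10286 CPM in leucocytes and overlapped fully (log2 fold change 0.09 ± 0.31, adjusted p = 0.814). With TMM scaling the log2 fold change of miR-486 was -0.92 (adjusted p = 0.0465), and with DESeq2 size factors it was -0.42 and did not pass. miR-182 and miR-183 rose (log2 fold changes 4.00 and 3.74) and miR-363 did not pass. Reads of miR-182 differed only 4.17-fold between libraries, and miR-183 is 1 of the 15 names with near-constant reads. With the library totals this fixes the direction of change of miR-182 and miR-183. In total the erythroid list took 12.3% ± 3.96 of plasma reads and 34.8% ± 5.92 of leucocyte reads, the largest share of any list in the libraries labelled leucocytes. Their part in the other shares was not tested beyond the scaling without this list, given with the counts of calls.

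Leucocyte miRNAs took a smaller share of plasma than of leucocytes, from 2.75% to 3.68% against 4.82% to 5.89% of reads, so that the sample types did not overlap. Of 12 tested names 2 fell in plasma, 1 rose and 9 did not pass. Over all tested names 16.5% fell, so the share of the list that fell was near that value, and 34.6% rose. The median log2 fold change of the list was -0.45 beside 0.85 for all names. With TMM scaling the median was -1.47 beside -0.28. miR-142-5p, which marks blood cells of all lineages, was at 8302, 9983, 7775 and 7307 CPM in plasma and 23328, 19962 and 13215 CPM in leucocytes, without overlap (log2 fold change -1.18 ± 0.33, adjusted p = 0.0119). The lymphocyte miRNA miR-150 was at 5172, 2395, 6071 and 3376 CPM in plasma and 6736, 7193 and 19831 CPM in leucocytes (log2 fold change -1.40 ± 0.47, adjusted p = 0.0257). The ranges of miR-150 did not overlap either, and the leucocytes of cow 4 stood above those of cows 1 and 3. Its call was lost without that library, without plasma of cow 2 or of cow 4, and with the replicate block. The myeloid miR-223 was at 10444 ± 4688 CPM in plasma and 9410 ± 504 CPM in leucocytes (log2 fold change 0.15 ± 0.41, adjusted p = 0.778). miR-155, induced in activated lymphocytes, had a log2 fold change of 0.16 ± 0.87 (adjusted p = 0.885), and its plasma values ran from 64.4 to 1168 CPM. The member that rose was miR-147, with 40.0, 853, 176 and 187 CPM in plasma and 21.1, 23 and 11.4 CPM in leucocytes (log2 fold change 4.08 ± 1.14, adjusted p = 0.0110), a call that was lost with the replicate block. On average the list made up 3.17% ± 0.452 of plasma reads and 5.23% ± 0.578 of leucocyte reads.

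The miR-15/16 and miR-17/92 families were lower in plasma. These miRNAs act on the cell cycle, the first as brakes on cyclins and BCL2 and the second as drivers of proliferation in lymphoid cells. In the miR-15/16 family 4 of 6 tested names fell and 1 rose, while 16.5% of all tested names fell and 34.6% rose. The level of miR-16b was 17347, 9524, 9356 and 10984 CPM in plasma and 43382, 40653 and 41902 CPM in leucocytes (log2 fold change -1.83 ± 0.32, adjusted p = 0.00103), and miR-15b changed by -1.94 ± 0.43 (adjusted p = 0.00330). The member that rose was miR-195 (log2 fold change 2.38, adjusted p = 0.0417), a miRNA of muscle and stroma, and its call was lost in 10 alternatives, among them TMM scaling, equal depth and the replicate block. The family took 4.45% ± 1.12 of plasma reads and 14% ± 1.59 of leucocyte reads. In the miR-17/92 group 8 of 14 tested names fell and none rose, beside the same shares. Some of the 8, miR-106a (3.24 ± 2.03 CPM in plasma) among them, were under 10 CPM in every plasma library. These entered the test through leucocytes alone and could only fall. The miR-106b, miR-93 and miR-25 of 1 cluster on chromosome 25 changed by -2.10 ± 0.49, -1.63 ± 0.42 and -1.44 ± 0.35 (adjusted p = 0.00485, 0.00788 and 0.00611). miR-92a, the most abundant member by undivided share in plasma with 3.31%, did not pass (log2 fold change 0.17 ± 0.34, adjusted p = 0.679).

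Other abundant names that fell were miR-103 (log2 fold change -1.52 ± 0.41, adjusted p = 0.00908), which tunes insulin signalling, miR-101 (-1.5 ± 0.49, adjusted p = 0.0210) and miR-6119-5p (-2.24 ± 0.58, adjusted p = 0.00788). miR-103 was at 3054 ± 1268 CPM in plasma and 8752 ± 151.9 CPM in leucocytes, and its close relative miR-107 was at 560 ± 539 and 312 ± 5.65 CPM (log2 fold change 0.85, adjusted p = 0.384). The cattle-specific miR-2284 and miR-2285 family, which has many near-identical copies so that single names are uncertain, had reads for 98 names. Of 17 tested, 6 fell and none rose, but 3 of the 6 were under 10 CPM in every plasma library, entered the test through leucocytes alone and could only fall. miR-2285t was at 42.4, 13.4, 14.1 and 7.15 CPM in plasma and 135, 153 and 207 CPM in leucocytes (log2 fold change -3.18 ± 0.95, adjusted p = 0.0142).

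Widely expressed families are given beside the shares over all tested names, of which 34.6% rose and 16.5% fell. The miR-23/24/27 clusters rose in 5 of 7 tested names and took 12.2% ± 3.06 of plasma reads and 2.60% ± 0.912 of leucocyte reads. The calls of miR-23a, miR-23b-3p and miR-27a-3p were lost with TMM scaling, and miR-23b-3p lost its call in 9 alternatives. miR-24-3p was at 23379, 43377, 89252 and 66267 CPM in plasma and 5264, 6213 and 11991 CPM in leucocytes (log2 fold change 2.83 ± 0.49, adjusted p = 8.27e-04), and miR-27b changed by 2.19 ± 0.36 (adjusted p = 5.61e-04). In the let-7 family, which favours differentiation, 4 of 10 tested names rose and the median log2 fold change was 0.87 (-0.29 with TMM scaling), both near the values of all tested names. let-7b was at 11900, 10004, 27170 and 28208 CPM in plasma and 1306, 1136 and 2097 CPM in leucocytes (log2 fold change 3.67 ± 0.51, adjusted p = 1.62e-04). let-7g, let-7i and let-7f overlapped between sample types, with log2 fold changes of -0.21, -0.19 and 0.22. In the miR-30 family 2 rose, 1 fell and 3 did not pass, shares close to those over all names. miR-30a-5p was at 9047 ± 6814 CPM in plasma and 481 ± 300 CPM in leucocytes (log2 fold change 4.23 ± 0.68, adjusted p = 5.61e-04), whereas miR-30b-5p was at 2149 ± 908 and 5978 ± 1637 CPM (log2 fold change -1.48 ± 0.44, adjusted p = 0.0146). miR-30a-5p is 1 of the 15 names with near-constant reads. In the miR-29 family 3 of 5 tested names rose, led by miR-29d-3p (log2 fold change 5.38 ± 1.26), and reads of that name were divided with its relatives in different proportions in plasma and leucocytes. The calls of miR-29a and miR-29b were lost with TMM scaling and with the replicate block. miR-221 and miR-222 did not differ beyond their spread (log2 fold changes 0.04 and 0.13), nor did miR-26a and miR-26b pass the test (-0.74 and -0.34). miR-152 rose alone in the miR-148 and miR-152 family, with a call lost under TMM scaling and the replicate block. The single tested miR-378 name passed (adjusted p = 0.0458) and lost its call in 12 alternatives. In the list of miR-103, miR-107, miR-191 and miR-423, 2 rose and 1 fell.

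**Figure D4:**
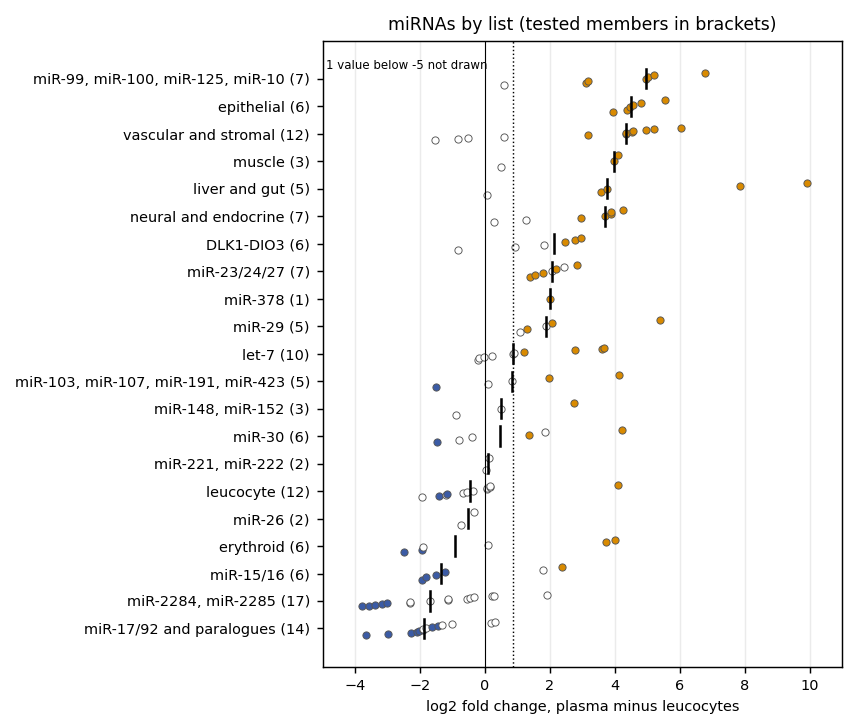
Log2 fold change (plasma minus leucocytes) of each tested miRNA by list, ordered by the median (black tick), with orange for names called higher in plasma, blue for names called lower and white for those not called. The dotted line is the median of all tested names (0.85); the epithelial, liver and gut, and vascular lists lie to its right and the erythroid, miR-15/16 and miR-17/92 lists to its left, and the value of miR-2285h, which had no listed reads in plasma, is not drawn.

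miRNAs that lie close together are often cut from 1 transcript, and their changes can be set side by side. On the UMD3.1 genome 33 groups of tested names lay within 10000 bases of each other on 1 strand, with 89 names in all. Each name was placed at its first listed locus only, so groups at further copies of a name are incomplete. Both arms of a precursor, as in miR-17 and miR-296, were counted as neighbours, and so were miR-23b-3p and miR-10174-3p, which share a start. In 24 groups all names had the same sign, which includes names that did not pass. The share of same-sign groups among unrelated names was not computed. All names were called higher in 8 groups and called lower in 4, none was called in 9, and the other 12 held called and uncalled names or names called in opposite directions. miR-200b, miR-200a and miR-429 on chromosome 16 changed by 4.46, 5.55 and 4.55, and miR-141 and miR-200c on chromosome 5 by 4.79 and 3.95. On chromosome 18, miR-99b, let-7e and miR-125a changed by 5.02, 3.60 and 5.21. In all of these names except let-7e, the direction was fixed by read numbers and library totals, as given above. Other neighbours differed in their calls, and these differences were not tested. Besides miR-192 and miR-194, let-7c rose (log2 fold change 2.78, adjusted p = 0.00287) beside miR-99a-5p (0.57, adjusted p = 0.373) on chromosome 1, and miR-30d rose (1.35, adjusted p = 0.0110) where miR-30b-5p fell on chromosome 14, and the call of miR-30d was lost with TMM scaling and the DESeq2 test.

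**Figure D5:**
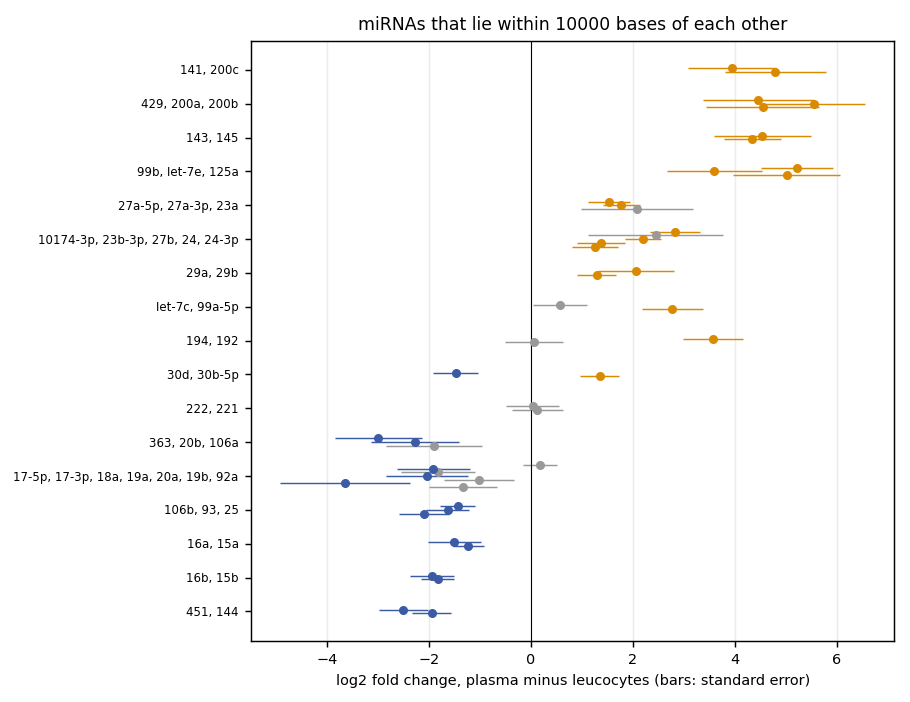
Log2 fold change (plasma minus leucocytes) with its standard error for the miRNAs of 17 genomic neighbourhoods, 1 row each, orange where called higher in plasma, blue where called lower and grey where not called. Rows such as miR-143 and miR-145 or miR-451 and miR-144 lie on 1 side of 0, while miR-30d and miR-30b-5p lie on opposite sides.

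The ratio of the 5p to the 3p arm of a precursor does not depend on how libraries are scaled. It was tested for the 15 precursors with both arms at a mean of at least 10 CPM in each sample type. In 6 of them (40.0%) the libraries of the sample types did not overlap. None passed the adjusted threshold in a two-sided exact permutation test over the 7 libraries, where the smallest possible p of 0.0286 was reached by 2 precursors (adjusted p = 0.171). For miR-423 the log2 ratio of 5p to 3p was 0.40, 0.32, 0.61 and 0.19 in plasma of cows 1 to 4, so that the 5p arm had more reads, and -1.28, -1.32 and -2.30 in leucocytes, where the 3p arm had more (difference 2.01, exact p = 0.0286). Both arms had higher CPM in plasma, miR-423-5p by 4.13 ± 0.63 and miR-423-3p by 1.96 ± 0.62. The CPM ranges of miR-423-3p overlapped, and its call was lost with TMM scaling, DESeq2 size factors, the total without erythroid names and the DESeq2 test. For miR-29d the ratio was -3.73 ± 1.24 in plasma and 1.37 ± 0.35 in leucocytes (difference -5.10, exact p = 0.0286), with the limit on miR-29d-3p given above. The ratio of miR-296 was lower in plasma by 4.34 and that of miR-425 was higher by 2.04 (exact p = 0.0571 for each), and their plasma values scattered with SDs of 3.19 and 1.46.

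Detection followed depth. The library files list no name with fewer than 2 reads. At this limit 256 names were listed in all 4 plasma libraries, 518 in all 3 leucocyte libraries and 256 in all 7, so no name was in every plasma library and absent from leucocytes. In the opposite direction 157 names were in all leucocyte libraries and in no plasma library. With the rounded divided reads of every library reduced to the size of the smallest, and any read counted, 10 names were found in plasma alone and 25 in leucocytes alone. These counts differ from those above in limit and kind of reads as well as in depth. Among the 157, miR-2320-5p had 410, 399 and 227 reads in leucocytes, miR-2285h had 412, 455 and 157, and miR-190a had 425, 383 and 43. At an equal share the plasma libraries together would hold 48.6, 48.0 and 39.9 reads of these 3, and they listed none. Of these, miR-2320-5p and miR-2285h reached the filter through leucocytes alone and were called lower in plasma (adjusted p = 0.00122 for each). miR-324 and miR-6536 followed with 733 and 727 leucocyte reads in all. The smallest share that plasma could show differed between libraries, since 3 reads made up 14.1 CPM in plasma of cow 1 and 1.79 to 3.65 CPM in the others.

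The comparison was also made in the libraries from the HG diet, which were not used above but came from the same cows and kits. There 56.4% of 280 tested names passed. All 133 names called on FD were tested on HG, where 125 had the same sign and 108 passed again with that sign.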

How the data were processed

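Per the labels and the methods of the study, libraries were made with the NEXTflex kit, sequenced single-end, demultiplexed with bcl2fastq 2.20, trimmed with Skewer and assigned to miRBase names of cattle and human on UMD3.1 with sRNAbench. The deposited library files give read counts per miRNA name and estimated counts, in which the authors divided a read among the names it maps to. The authors' normalized tables, made for each sample type alone, were not used here. Counts of bta names were rounded and tested with edgeR 4.0.16 (robust quasi-likelihood, R 4.3.3) on 4 plasma and 3 leucocyte libraries, with the bta total as library size, at least 10 CPM in 3 libraries and Benjamini-Hochberg adjustment. The labels name no cow, and the number in a title was read as the cow number. Deviations of same-numbered libraries from the group means correlated at -0.01, 0.01 and 0.06. Those of differently numbered libraries correlated at -0.106 to 0.082, so the profiles do not show the pairing. The block fit, which rests on that reading, is given beside the counts. Alternatives were scaling, filter, DESeq2 1.42.0, undivided reads, human names, equal depth, all 14 libraries and leaving out libraries. Named miRNAs were the 10 most abundant of each sample type, the 10 largest changes each way above 1000 CPM without overlap, list members, the 4 largest arm differences and names seen in 1 sample type, others being named as such. The members and lists were chosen with earlier results of these data known. No mature sequences are printed here. Intervals and spreads cover these cows only.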

Additional observations from a re-analysis of the deposited data

Results flagged for a closer look

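Among the 4 plasma libraries, 17 of 162 sets of values had 1 library far from the other 3, by a gap to the nearest library that passed Dixon's 95% critical value. Chance gives about 1 in 20 only for independent, normally distributed values. CPM and shares entered untransformed and the sets share libraries and miRNAs, so 17 of 162 cannot be set against that rate. Of these 17, 11 were high in plasma of cow 1, the library with the fewest reads: miR-21-5p with 105427 CPM, miR-26a with 19570, miR-93 with 6036, miR-106b with 5144, miR-200b with 4089, miR-199a-3p with 1940, miR-363 with 84.8, miR-495 with 63.6, miR-17-3p with 21.2 and miR-494 with 14.1 CPM, and the miR-15/16 list with 6.13% of reads. The value of miR-494 in that library equals 3 reads. Plasma of cow 2 stood above the others in miR-107 with 1357 CPM and in miR-7 with 384 CPM. Plasma of cow 3 stood apart in miR-2285q with 288 CPM and in miR-24, the passenger arm name, with 209 CPM. In plasma of cow 4 the values apart were miR-27a-5p with 103 CPM and miR-199c with 40.1 CPM.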

How the results depend on the processing

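Of the 84 named miRNAs that were called, 46 kept their call and direction under every alternative that could be fitted, and none changed sign. The replicate block lost 18 of these calls and TMM scaling 15. The count of names higher in plasma was 59 with the replicate block and 40 to 90 when 1 library was left out. The count of lower names was 87 with TMM scaling, 69 with DESeq2 size factors, 75 with the DESeq2 test, 115 with a filter of 1 CPM, 25 with 100 CPM, 118 with no filter and 13 to 65 without 1 library. With TMM scaling miR-21-5p (0.21) became -0.95 and miR-486 became -0.92, and without plasma of cow 3 miR-2285q (1.91, not called) became -3.07, its range without 1 library being -3.07 to 2.33. Without 1 library, names in all leucocyte and no plasma libraries numbered 163 to 218, and they numbered 101 at 10 reads. At equal depth, with any divided read counted, they numbered 25, and 10 names were in plasma alone. The log2 ratio of the summed share moved beyond 1 SD between libraries in 18 cases. With the total without erythroid names it was -1.16 for the leucocyte list, 2.85 for neural and endocrine, 2.61 for vascular and stromal, 0.033 for let-7, -0.17 for miR-30, -2.11 for miR-15/16, -1.45 for miR-17/92, 1.81 for miR-23/24/27, -1.06 for miR-26, -0.35 for miR-148 and miR-152, -0.43 for miR-221 and miR-222 and -0.90 for miR-2284 and miR-2285. With undivided reads it was 3.26 for muscle, 2.90 for neural and endocrine, 2.41 for vascular and stromal and -0.64 for miR-17/92, and with human names -0.52 for leucocyte and -0.81 for miR-17/92. The cause of these moves was not tested. No arm ratio passed under any alternative, and with 1 library left out no p under 0.05 was possible. Depth limits the plasma of cow 1 most, and 3 leucocyte libraries limit every call.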
